A study of Mus musculus with 2 samples.

Results

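The genes examined were 10 members of the machinery that carries a cell from G1 into S phase or out of the cycle. They were the cyclin-dependent kinase inhibitors Cdkn1b (p27) and Cdkn1c (p57), Rgcc (regulator of cell cycle), the D-type cyclins Ccnd1, Ccnd2 and Ccnd3, their kinases Cdk4 and Cdk6, the retinoblastoma gene Rb1 and the transcription factor E2f1. They are 10 of the 30905 genes listed in both libraries, and all 10 had UMIs (unique molecular identifiers, 1 per captured transcript) in both. The 10 symbols were selected on earlier results from these same libraries, in which Cdkn1c and Rgcc were among the genes with the lowest ratios in progenitor-like cells, so the ratios below are a description and carry no test. The study had asked how loss of Mettl3, the catalytic subunit of the enzyme that writes N6-methyladenosine on mRNA, alters late retinal development. The control library pooled 2 retinas from 2 pups labelled only as control. The Mettl3-CKO library pooled 2 retinas from 2 pups that carried Six3-Cre and 2 floxed copies of Mettl3 (floxed/floxed). All retinas came from 1 litter at postnatal day 7. Six3-Cre acts in retinal progenitor cells (RPCs), and the study describes loss of the protein for the central retina. The libraries were made from whole retinas, and the study places the RPCs that remain at this age likely on the periphery. Each genotype had 1 library and no replicate, so each difference is between 2 libraries and each 95% interval covers counting error only.

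In G1, D-type cyclins bind CDK4 or CDK6, and the active kinases phosphorylate the retinoblastoma protein, which then releases E2F factors that switch on S-phase genes. p27 and p57 belong to a family of inhibitors that bind cyclin-kinase complexes and hold cells out of S phase. In the rodent retina RPCs use mainly cyclin D1, neurogenic cells leave the cycle as they commit to a neuronal fate, and Müller glia are the last cells to leave it. Mature Müller glia are quiescent and are known to contain p27 and cyclin D3, and p57 is known from cycle exit of RPCs and from amacrine cells.

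The libraries held 22181683 UMIs in 3994 control cells and 20830028 UMIs in 3109 Mettl3-CKO cells, with medians of 4520.5 and 5207 UMIs a cell after mitochondrial genes were left out. Mettl3 itself (ENSMUSG00000022160, chromosome 14, 52294841 to 52305128, minus strand) was at 39.5 CPM (36.9 to 42.3) in control and 33.1 CPM (30.6 to 35.7) in Mettl3-CKO cells, where CPM is counts per 1000000 UMIs of the class, a ratio of 0.837 (0.754 to 0.928). In the cell classes compared below, the ratio ran from 0.659 (0.399 to 1.10) in cone-like to 1.31 (0.837 to 2.05) in early neurogenic-like cells. The interval held 1 in every one of these classes. The libraries read the 3′ end of transcripts, and the position of the deleted exons was not given in the sources used here. The level of Mettl3 is thus a weak check of the labels. Xist UMIs were found in 56.3% of Mettl3-CKO and 0.751% of control cells, while Y-linked genes were at 102 and 262 CPM. The libraries thus differed in sex as well as genotype, and results are also given for Mettl3-CKO cells with and without an Xist UMI. As the Mettl3-CKO pool came from 2 pups, this split is also largely a split between pups. The libraries shared 5 cell barcodes.

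Cells were put into classes by how many distinct markers of each list had a UMI, and none of the 10 genes was a marker. The classes compared were cycling G2/M-like cells (135 control and 210 Mettl3-CKO), cycling S-like cells (63 and 127), early neurogenic-like cells (174 and 127), committed neurogenic-like cells (146 and 179), precursor-like cells (716 and 587), Müller-like cells (221 and 150), rod-like cells (1359 and 834) and cone-like cells (87 and 102). The leading genes of the classes included Ube2c and Top2a in G2/M-like, Mcm6 and Mcm3 in S-like, Neurog2 and Dll1 in early neurogenic-like, Mybl1 and Atoh7 in committed neurogenic-like, Rlbp1 and Slc1a3 in Müller-like and Pdc and Sag in rod-like cells. Ccnd1 and E2f1 stood among the 10 leading genes of S-like cells, a consequence of the class and not a result. Some gates were narrow, since 251 of 325 committed and 156 of 301 early neurogenic-like cells had just the minimum number of markers. The Müller-like class was not the same population in both libraries. Of its 221 control cells 169 fell in the cluster led by Müller markers, whereas of the 150 Mettl3-CKO cells 55 fell there and 81 in a cluster named from early neurogenic markers. Of the 127 Mettl3-CKO S-like cells 64 lay in that same cluster, against 17 of 63 in control. The 13 Müller markers of Müller-like cells summed to 12223 CPM in control and 8387 CPM in Mettl3-CKO cells. Median depth was 8636 and 7883 UMIs in Müller-like cells, 10604 and 10198 in G2/M-like cells and 8289 and 12153 in cone-like cells.

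Ccnd1 (ENSMUSG00000070348, chromosome 7, 144929931 to 144939925, minus strand), cyclin D1, had the most UMIs of the 10 genes and was lower at each step from cycling cells to neurons. Its level in the control library was 3633 CPM (3468 to 3804) in S-like and 3008 CPM (2919 to 3099) in G2/M-like cells, 1415 in early neurogenic-like, 321 in committed neurogenic-like, 42.0 in precursor-like, 25.8 in rod-like and 13.4 CPM in cone-like cells. In the Mettl3-CKO library the same classes were at 3151, 3528, 1535, 345, 51.7, 35.4 and 27.3 CPM. At each of 3 steps the intervals of the libraries overlapped. From cycling cells (S-like and G2/M-like pooled) to early neurogenic-like cells the ratio of levels was 0.447 (0.425 to 0.470) in control and 0.452 (0.428 to 0.478) in Mettl3-CKO, from early to committed cells 0.227 (0.203 to 0.253) and 0.225 (0.202 to 0.249), and from committed to precursor-like cells 0.131 (0.107 to 0.159) and 0.150 (0.124 to 0.181). Müller-like cells kept 1476 CPM (1421 to 1534) in control and 1878 CPM (1800.0 to 1958) in Mettl3-CKO, which in control lay close to the level of early neurogenic-like cells. The intervals of the 2 libraries did not overlap there, with a ratio of 1.27 (1.20 to 1.35), but the ratio stayed under 1.5-fold. The part that the different make-up of the Müller-like class had in this was not tested. The ratio was 1.17 (1.13 to 1.22) in G2/M-like and 0.867 (0.820 to 0.918) in S-like cells, on opposite sides of 1. With each cell thinned to 2000 UMIs, a Ccnd1 UMI was seen in 77.1% (70.7 to 82.7) of control and 84.7% (77.8 to 90.2) of Mettl3-CKO Müller-like cells (93.2% and 96.7% without thinning), against 4.58% and 6.59% of rod-like cells, which are post-mitotic and give the background share.

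**Figure D1:**
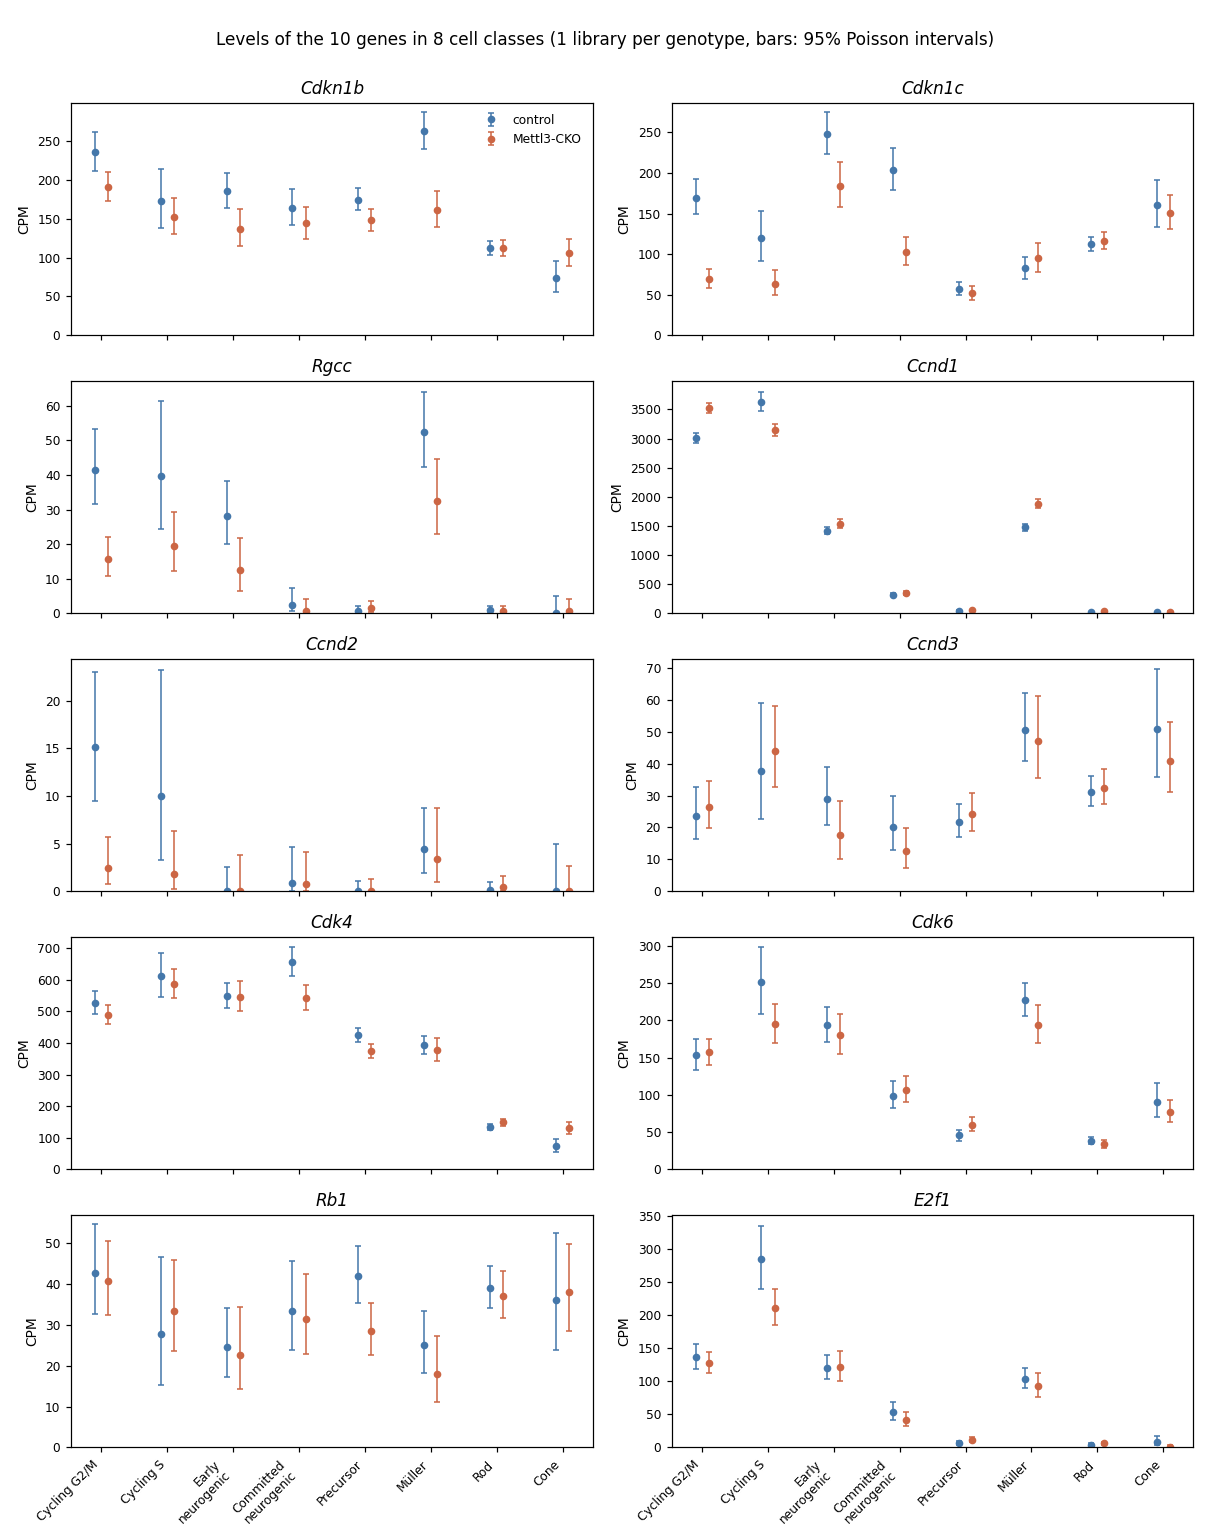
Level of each of the 10 genes in 8 cell classes, in CPM of the class on linear axes that start at 0, for the control library (blue) and the Mettl3-CKO library (orange), with 95% Poisson intervals of the counts. Ccnd1 and E2f1 are highest in cycling S-like and G2/M-like cells and near 0 in rod-like and cone-like cells, Cdkn1c is lower in Mettl3-CKO than in control cycling and committed neurogenic-like cells, and Ccnd2 is near 0 in neurogenic-like, precursor-like, rod-like and cone-like cells.

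E2f1 (ENSMUSG00000027490, chromosome 2, 154559407 to 154569892, minus strand), an activator of S-phase genes, ran with Ccnd1 across the 16 class and library values (r = 0.98, on the log2(CPM + 10) scale, over points that share libraries). Its control level was 285 CPM (239.8 to 335) in S-like, 137 in G2/M-like, 120.0 in early neurogenic-like, 53.6 in committed neurogenic-like, 6.37 in precursor-like, 104 in Müller-like, 4.03 in rod-like and 8.02 CPM in cone-like cells. The Mettl3-CKO levels were 212 CPM (186 to 240.0), 128, 122, 41.8, 11.2, 93.1, 5.93 and 0.719 CPM. Precursor-like cells were past 1.5-fold higher at 1.77 (0.995 to 3.19), from 22 and 32 UMIs, and the interval held 1. S-like cells were lower at 0.743 (0.602 to 0.921), within 1.5-fold.

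Cdk4 and Cdk6, the kinases that cyclin D binds, differed in where they were kept. Cdk4 (ENSMUSG00000006728, chromosome 10, 127063534 to 127067920, plus strand) was at 527 CPM in G2/M-like, 613 in S-like, 549 in early neurogenic-like, 656 in committed neurogenic-like, 424 in precursor-like, 393 in Müller-like, 135 in rod-like and 73.5 in cone-like control cells. Committed cells, where Ccnd1 and E2f1 were already low, thus held no less Cdk4 than cycling cells, and the lower levels were those of precursor-like, Müller-like, rod-like and cone-like cells. Its Mettl3-CKO levels were 488, 587, 546, 542, 374, 377, 148 and 131 CPM. The ratio lay between 0.826 in committed neurogenic-like and 1.10 in rod-like cells except in cone-like cells, where it was 1.78 (1.31 to 2.45), from 55 and 182 UMIs. Cdk6 (ENSMUSG00000040274, chromosome 5, 3341485 to 3531008, plus strand) was at 251 CPM in S-like, 153 in G2/M-like, 193 in early neurogenic-like, 98.9 in committed neurogenic-like, 45.4 in precursor-like, 227 in Müller-like, 38.4 in rod-like and 90.9 in cone-like control cells. From early to committed neurogenic-like control cells the ratio was 0.511 (0.409 to 0.636), against 1.19 (1.08 to 1.32) for Cdk4. Its Mettl3-CKO levels were 195, 157, 180.0, 106, 60.1, 194, 34.0 and 76.9 CPM. No class was past 1.5-fold with all cells, the ratios running from 0.777 in S-like to 1.32 in precursor-like cells. In precursor-like cells of at least 4000 UMIs it was past 1.5-fold, at 1.58 (1.14 to 2.16) without and 1.5 (1.13 to 1.99) with Xist. Transcript levels of different genes are given per UMI and, with 3′ counting, were not scaled to length.

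The start-site windows of both kinases are shown because the 2 genes differed in how far their levels went with that of Ccnd1. Over all 16 class and library values r with Ccnd1 was 0.78 for Cdk4 and 0.89 for Cdk6, although from cycling to committed cells Cdk4 did not go down with it. RefSeq windows of build GRCm38.p6, from 250 bases before to 50 bases after a start site, matched 6 of the 10 genes, and Cdkn1c, Ccnd1, Ccnd2 and Rb1 are named only. The Cdk6 window lies inside the gene as GENCODE draws it, past its annotated 5′ end, and belongs to an inner start site. The E2f1 window also lies inside its gene and is not shown. Capitals mark CACGTG, the E-box bound by MYC and related factors, which reads the same on both strands and is held by 7.15% of all 32851 windows of this length.
Cdk4, chr10:127063285-127063584, plus strand: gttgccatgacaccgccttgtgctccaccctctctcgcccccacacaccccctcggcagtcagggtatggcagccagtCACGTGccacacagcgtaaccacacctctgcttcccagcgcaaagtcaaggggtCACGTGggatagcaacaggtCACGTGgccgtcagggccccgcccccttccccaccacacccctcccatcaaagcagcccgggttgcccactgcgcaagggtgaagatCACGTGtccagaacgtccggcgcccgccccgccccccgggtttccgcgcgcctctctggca
Cdk6, chr5:3343643-3343942, plus strand: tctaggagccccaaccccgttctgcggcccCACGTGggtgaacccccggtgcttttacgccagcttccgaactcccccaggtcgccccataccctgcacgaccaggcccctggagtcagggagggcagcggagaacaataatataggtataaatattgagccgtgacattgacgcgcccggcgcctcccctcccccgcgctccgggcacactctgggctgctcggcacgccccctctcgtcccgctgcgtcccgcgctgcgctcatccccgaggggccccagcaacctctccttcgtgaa
Cdk4 held 4 copies and Cdk6 held 1, while the windows of Cdkn1b, Rgcc and Ccnd3 held none. Other motifs were searched as well. TTTCGCGC and TTTGGCGC were in none of the matched windows. GGGCGG, read on either strand and held by 35.7% of all windows, was counted 3 times in Cdk4, 0 in Cdk6 and 5 in Rgcc. A match is a stretch of letters and not a shown site of binding.

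Rb1 (ENSMUSG00000022105, chromosome 14, 73183673 to 73325822, minus strand), the gene of the pocket protein that CDK4 and CDK6 phosphorylate, was low in all 8 classes. Its control levels ran from 24.7 CPM in early neurogenic-like to 42.8 CPM in G2/M-like cells, and its Mettl3-CKO levels from 17.9 CPM in Müller-like to 40.8 CPM in G2/M-like cells. With the 8 classes put in order of level, no neighbours differed beyond their counting error in either library. Cells farther apart in that order did differ. Early neurogenic-like cells were lower than cycling cells, at 0.634 (0.414 to 0.954) in control and 0.596 (0.360 to 0.944) in Mettl3-CKO, and Müller-like cells were at 0.644 (0.435 to 0.943) and 0.470 (0.281 to 0.751). No class was past 1.5-fold between genotypes. The lowest ratio was that of precursor-like cells, 42.0 CPM (35.4 to 49.4) against 28.5 CPM (22.6 to 35.4), at 0.678 (0.510 to 0.897). Ccnd1, Ccnd2, Ccnd3, Cdk4 and Cdk6 each overlap 1 or 2 other annotated genes on the opposite strand. Rb1 overlaps 4 other annotated genes, among them Rcbtb2 and Lpar6 on the opposite strand, and whether counting used the strand was not stated.

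Cdkn1c (ENSMUSG00000037664, chromosome 7, 143458339 to 143461050, minus strand), the p57 inhibitor, was past 1.5-fold lower in Mettl3-CKO in both cycling classes and in committed neurogenic-like cells. In G2/M-like cells it was at 169.7 CPM (149 to 192) in control and 69.8 CPM (58.8 to 82.2) in Mettl3-CKO, a ratio of 0.411 (0.332 to 0.508). In S-like cells it was at 119 CPM (91.1 to 154) and 63.5 CPM (49.6 to 79.9), a ratio of 0.531 (0.372 to 0.762). Committed neurogenic-like cells were at 204 CPM (179 to 231) and 103 CPM (86.4 to 121), a ratio of 0.505 (0.407 to 0.624). The S-like ratio was within 1.5-fold, at 0.699, when 5 S markers were asked for, and the committed ratio, at 0.679, with Leiden clusters. Early neurogenic-like cells, which held the highest level of the 8 classes in both libraries, were at 248 CPM (223 to 275) and 184 CPM (158 to 213), a ratio of 0.742 (0.617 to 0.890), within 1.5-fold. Beyond commitment all 4 intervals of the ratio held 1 with all cells of a class. The levels were 57.6 and 52.0 CPM in precursor-like cells (ratio 0.903, 0.725 to 1.12), 82.4 and 94.8 CPM in Müller-like cells (1.15, 0.891 to 1.48), 113 and 116 CPM in rod-like cells (1.03, 0.919 to 1.16) and 160.4 and 151 CPM in cone-like cells (0.941, 0.748 to 1.19). The interval of the ratio in G2/M-like cells lies below those in precursor-like, Müller-like, rod-like and cone-like cells without overlap. The gene was selected for low ratios in progenitor-like cells, so nothing is read from this. In Mettl3-CKO cells of at least 4000 UMIs without Xist, the G2/M-like interval (0.254 to 0.494) overlapped the precursor-like one (0.375 to 0.829). With Xist these 2 intervals did not overlap. The 12 rod markers, a measure of RNA from other cells, summed to 125 and 119 CPM in control and Mettl3-CKO G2/M-like cells against 28137 and 25279 CPM in rod-like cells. The 13 Müller markers summed to 3879.8 and 3345 CPM in G2/M-like cells, and their part in the result was not tested.

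Cdkn1c was then set against cycling cells within each library. The low Mettl3-CKO level in cycling cells, on which the selection of the gene drew, is part of these ratios. They are therefore not a separate result. Early neurogenic-like cells were above cycling cells by a ratio of 1.58 (1.36 to 1.85) in control and 2.73 (2.22 to 3.34) in Mettl3-CKO. Committed against early neurogenic-like cells were at 0.820 (0.694 to 0.968) and 0.558 (0.444 to 0.700). Müller-like against cycling cells were at 0.526 (0.429 to 0.642) in control and 1.40 (1.11 to 1.77) in Mettl3-CKO, on opposite sides of 1. The Müller-like class was not the same population in both libraries, and the part of this was not tested. Precursor-like cells had the lowest level of the 8 classes in both libraries and rod-like cells were 1.95 (1.66 to 2.30) and 2.24 (1.86 to 2.70) times as high as precursor-like cells. At 2000 UMIs a cell, a Cdkn1c UMI was seen in 21.1% (14.3 to 29.4) of control and 11.9% (7.50 to 17.6) of Mettl3-CKO G2/M-like cells, and in 20.7% (14.3 to 28.4) and 11.4% (7.08 to 17.0) of committed neurogenic-like cells, with overlapping intervals for both. In rod-like cells, which are not known to lack the gene and so give no clean background, the shares were 18% and 17.2%. Without thinning the G2/M-like shares were 58.5% and 34.3%. In early neurogenic-like control cells, thinned in the same way, Cdkn1c was seen in 31.8% (23.1 to 41.5) of the 107 cells with a Ccnd1 UMI and 14.1% (6.64 to 25) of the 64 cells without one. In committed neurogenic-like control cells it was seen in 37.2% (23.0 to 53.3) of the 43 cells with a Ccnd1 UMI and 13.4% (7.33 to 21.8) of the 97 cells without one, and in Mettl3-CKO ones in 27.0% (13.8 to 44.1) of the 37 cells with a Ccnd1 UMI and 7.19% (3.50 to 12.8) of the 139 cells without one, with intervals that did not overlap in committed cells of either library but did in early neurogenic-like cells of both. Control G2/M-like cells went the other way, with Cdkn1c in 19.3% (12.3 to 27.9) of the 109 cells with a Ccnd1 UMI and 35.7% (12.8 to 64.9) of the 14 cells without one, and so did the control S-like cells, of which 3 lacked Ccnd1. Mettl3-CKO cycling cells did not. Among G2/M-like ones Cdkn1c was in 13.4% (8.47 to 19.7) of the 157 cells with Ccnd1 and 0% (0 to 16.8) of the 20 without. Among S-like ones it was in 11.8% (6.23 to 19.6) of 102 and 0% (0 to 24.7) of 13. The intervals overlapped in all these cycling classes. Cdkn1c overlaps the antisense gene Gm44732.

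Rgcc (ENSMUSG00000022018, chromosome 14, 79288756 to 79301645, minus strand), a cell cycle regulator reported to act on CDK1, was a gene of cycling, early neurogenic-like and Müller-like cells, with at most 5 UMIs a library in each of the other 4 classes. It was at 41.4 CPM (31.6 to 53.3) and 15.7 CPM (10.8 to 22.2) in control and Mettl3-CKO G2/M-like cells, a ratio of 0.380 (0.239 to 0.593). In S-like cells the levels were 39.8 CPM (24.3 to 61.5) and 19.4 CPM (12.2 to 29.4), a ratio of 0.487 (0.254 to 0.941). In early neurogenic-like cells they were 28.1 CPM (20.2 to 38.1) and 12.4 CPM (6.41 to 21.7), a ratio of 0.442 (0.211 to 0.856). In Müller-like cells, where it was highest of the 8 classes in both libraries, they were 52.4 CPM (42.3 to 64.1) and 32.4 CPM (23.0 to 44.5), a ratio of 0.620 (0.414 to 0.912). All 4 classes with at least 20 UMIs were thus past 1.5-fold lower, from counts of 12 to 94 UMIs a class. The shares of cells with an Rgcc UMI, among cells with Ccnd1 thinned as for Cdkn1c, did not all go the same way. They were 4.59% in control and 5.73% in Mettl3-CKO G2/M-like cells and 4.67% and 7.06% in early neurogenic-like cells. In S-like cells they were 7.69% and 5.88% and in Müller-like cells 8.39% and 5.74%. The intervals of these shares overlapped in all 4 classes, from 4 to 13 cells with Rgcc. The genes with the most similar pattern over the 16 class and library values were Ednrb (r = 0.98), Gng11 (r = 0.98) and Plat (r = 0.97).

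Cdkn1b (ENSMUSG00000003031, chromosome 6, 134920401 to 134925513, plus strand), the p27 inhibitor, was highest in control Müller-like cells at 263 CPM (239.7 to 288) and lower, at 161 CPM (139 to 186), in Mettl3-CKO. The ratio there, 0.614 (0.516 to 0.728), was the only one of Cdkn1b past 1.5-fold, and the intervals of the levels did not overlap. With a stricter gate and with Leiden clusters it was within 1.5-fold, at up to 0.704. Against cycling cells, Müller-like cells were at 1.20 (1.05 to 1.37) in control and 0.912 (0.769 to 1.08) in Mettl3-CKO. In G2/M-like cells it was at 235 and 191 CPM (ratio 0.811, 0.699 to 0.940), in S-like cells at 173 and 152 (0.881, 0.677 to 1.15) and in early neurogenic-like cells at 185 and 137 (0.738, 0.594 to 0.912). It was at 163 and 144 CPM in committed neurogenic-like cells (0.881, 0.719 to 1.08), 174 and 148 in precursor-like (0.848, 0.747 to 0.962), 112 and 112 in rod-like (0.997, 0.884 to 1.12) and 73.5 and 106 in cone-like cells (1.44, 1.05 to 2.00). The ratio was below 1 in each of the 6 progenitor, neurogenic, precursor and Müller classes, and the interval left out 1 in 4 of them. How often it did so among all genes was not computed. A Cdkn1b UMI was seen at 2000 UMIs a cell in 37.8% (31.1 to 44.9) of control and 30.6% (23.2 to 38.8) of Mettl3-CKO Müller-like cells, with overlapping intervals, and in 20.4% and 20.4% of rod-like cells. The lower sum of Müller markers in Mettl3-CKO Müller-like cells moved with this result, and its part in it was not tested.

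**Figure D2:**
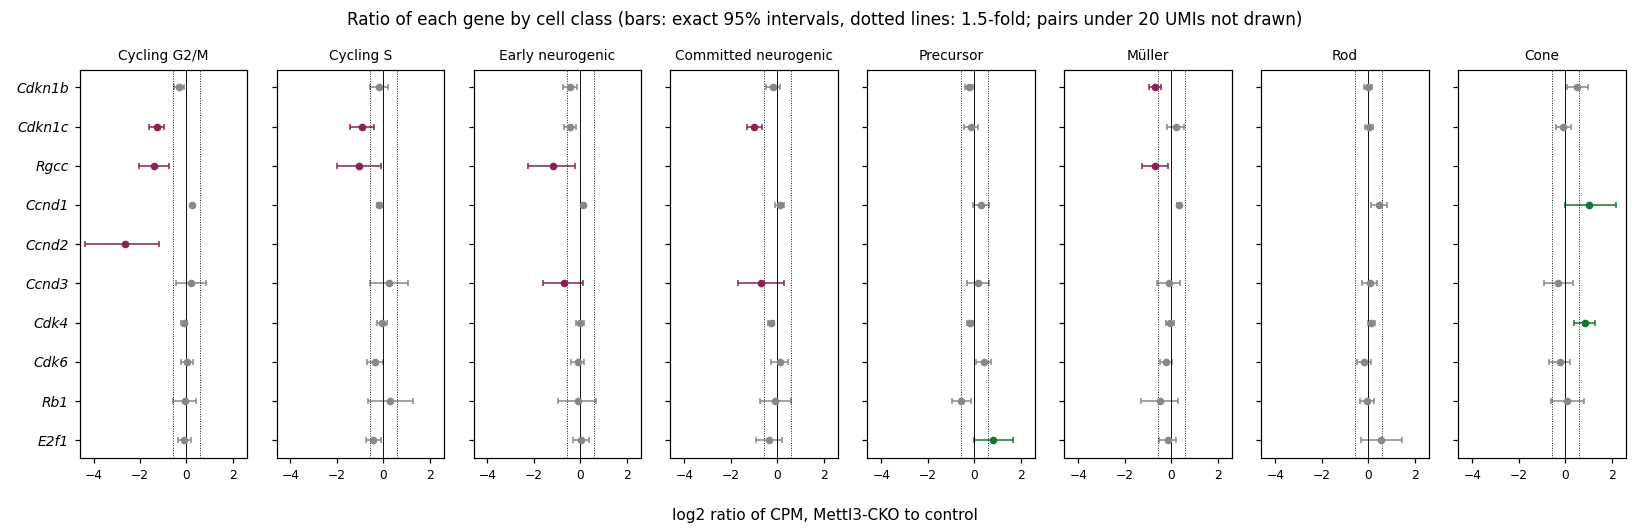
Log2 ratio of the level in the Mettl3-CKO library to that in the control library for each of the 10 genes, 1 panel per cell class, with exact 95% intervals of the counts, a line at 0 and dotted lines at 1.5-fold. Purple points are past 1.5-fold lower and green points past 1.5-fold higher, grey points are neither, and pairs under 20 UMIs are not drawn. Cdkn1c is purple in both cycling classes and in committed neurogenic-like cells, Rgcc in every class where it is drawn, and Cdkn1b in Müller-like cells alone.

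Ccnd3 (ENSMUSG00000034165, chromosome 17, 47505051 to 47599691, plus strand), cyclin D3, was low in all classes. Its control level was 50.7 CPM (40.8 to 62.2) in Müller-like and 50.8 CPM (35.9 to 69.7) in cone-like cells and between 20.1 and 37.8 CPM elsewhere. Its Mettl3-CKO level was 47.0 CPM (35.4 to 61.1) in Müller-like and 41.0 CPM (31.0 to 53.1) in cone-like cells and between 12.5 and 44.1 CPM elsewhere. Müller-like against cycling cells were 1.87 (1.32 to 2.67) in control and 1.43 (1.01 to 2.00) in Mettl3-CKO. Early and committed neurogenic-like cells were past 1.5-fold lower, at 0.611 (0.326 to 1.10) and 0.621 (0.313 to 1.20), from 42 and 17 and from 24 and 17 UMIs, and both intervals held 1. Of the other 6 classes none was past the fold, the ratios running from 0.806 in cone-like to 1.17 in S-like cells.

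Ccnd2 (ENSMUSG00000000184, chromosome 6, 127125162 to 127152193, minus strand), cyclin D2, was found mainly outside the 8 classes compared. These held 10.1% of its UMIs in control and 6.86% in Mettl3-CKO. Control cells held 367 and Mettl3-CKO cells 204 of its UMIs, of which 76.0% and 58.3% lay in 15 and 11 astrocyte-like cells, cells with at least 2 of the markers Gfap, Pax2, S100b and Aldh1l1. This class was set up after the Ccnd2 values had been seen, and Ccnd2 was among its 10 leading genes. Of the 4 markers only S100b was among them, beside Crip1, H19, Fn1 and Pdgfra. Whether all these cells are astrocytes was not tested. Retinal astrocytes enter the retina along the optic nerve and are not made by its RPCs. The level in the astrocyte-like cells was 1019 CPM (903 to 1146) in control and 837 CPM (693 to 1002) in Mettl3-CKO. In each library 3 cells held at least as many Ccnd2 UMIs as all the others together, and the highest single cell held 101 in control and 69 in Mettl3-CKO. Of the 8 classes compared, cycling G2/M-like cells alone had 20 UMIs or more, 22 in control and 5 in Mettl3-CKO, a ratio of 0.162 (0.0479 to 0.438). Where cells with astrocyte markers were left in the other classes the same log2 ratio was 1.04, on the opposite side of 0. Cells with none of the 4 markers were at 2.87 CPM in control and 3.04 in Mettl3-CKO. The same astrocyte-like cells also held Cdkn1c, at 321 CPM (258 to 396) and 77.4 CPM (38.6 to 138), and Rgcc, at 65.7 CPM (39.0 to 104) and 189.9 CPM (125 to 276).

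Over all 10 genes and 8 classes, 68 of 80 pairs of a gene and a class had at least 20 UMIs in the 2 libraries together. Of these, 11 were past 1.5-fold lower in Mettl3-CKO, 3 past 1.5-fold higher and 54 neither. The exact interval left out 1 in 9 of the lower and 1 of the higher pairs. How often it did so among all genes was not computed. Among all genes with 20 UMIs, the share past 1.5-fold lower was 5.32% in G2/M-like cells, where 3 of 10 members were (Cdkn1c, Rgcc and Ccnd2), and 8.33% in S-like cells, where 2 of 9 were (Cdkn1c and Rgcc). It was 8.06% in early neurogenic-like cells (2 of 9, Rgcc and Ccnd3), 5.15% in committed neurogenic-like cells (2 of 8, Cdkn1c and Ccnd3), 7.20% in Müller-like cells (2 of 9, Cdkn1b and Rgcc), 4.50% in precursor-like cells (0 of 8), 3.62% in rod-like cells (0 of 8) and 6.95% in cone-like cells (0 of 7). Past 1.5-fold higher were 5.57% of all genes in precursor-like cells against 1 of 8 members (E2f1) and 12% in cone-like cells against 2 of 7 (Ccnd1 at 2.04 (0.999 to 4.60) and Cdk4). No member was past 1.5-fold higher in the other 6 classes, where the shares of all genes were 11.7% in G2/M-like, 15.5% in S-like, 8.68% in early neurogenic-like, 10.6% in committed neurogenic-like, 12% in Müller-like and 5.37% in rod-like cells. With Leiden clusters in place of the gates, 4 of the 11 pairs that had a value stayed past 1.5-fold, and Rgcc and Ccnd3 in early neurogenic-like cells turned direction. The members were chosen with this contrast known, so nothing is read from these counts. The median log2 ratio of the members ran from -0.23 in committed neurogenic-like to 0.08 in cone-like cells, beside -0.02 to 0.06 over all genes by class. In cone-like cells, where Ccnd1 and Cdk4 were higher, the 9 cone markers summed to 24322 CPM in control and 16027 in Mettl3-CKO and the 13 Müller markers to 515 and 890.4 CPM, and the part of these differences was not tested.

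Leaving the cycle for the Müller-like state was compared within each library, with 2-fold as the size rule. Among the 10 control members with 20 UMIs, Ccnd1 at 0.466 (0.445 to 0.488) and Ccnd2 at 0.322 (0.126 to 0.729) were past 2-fold lower in Müller-like than in cycling cells and none was past 2-fold higher, against 10.2% and 7.29% of all genes. Among 9 Mettl3-CKO members Rb1 at 0.470 (0.281 to 0.751) was past 2-fold lower and none higher, against 9.93% and 5.88% of all genes. Ccnd1 in Mettl3-CKO was at 0.553 (0.528 to 0.579) and so just inside the rule. E2f1 was at 0.593 (0.493 to 0.711) and 0.590 (0.475 to 0.727) and Cdk4 at 0.716 (0.650 to 0.788) and 0.721 (0.647 to 0.801) in control and Mettl3-CKO, and Cdk6 at 1.27 (1.10 to 1.47) and 1.14 (0.968 to 1.33). Rgcc was higher in Müller-like cells at 1.28 (0.938 to 1.74) and 1.90 (1.22 to 2.94). Of the 30 other G1 and S entry genes, 22 of 29 with 20 UMIs were past 2-fold lower in control and 19 of 29 in Mettl3-CKO Müller-like cells. The gates asked for S or G2/M markers in cycling cells and limited them in Müller-like cells. Lower levels of genes that run with the cycle are thus partly a consequence of the classes. Cdkn1a was the only listed gene past 2-fold higher, in Mettl3-CKO, at 2.59 (2.25 to 2.98). In control it was past 2-fold lower, at 0.282 (0.179 to 0.431).

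The 30 other G1 and S entry genes, which hold the remaining inhibitors, cyclins E and A, CDK2, pocket proteins, E2F factors and antiproliferative genes, were past 1.5-fold higher in 30 and lower in 6 of 185 pairs with 20 UMIs. These are 16.2% and 3.24% of the pairs, beside 5.37% to 15.5% and 3.62% to 8.33% of all genes by class. Cdkn1a (p21), the third inhibitor of the p27 and p57 family and a known p53 target, accounted for 8 of the 30. Müller-like cells held 15.6 CPM in control and 343 CPM in Mettl3-CKO, which gives 22.0 (15 to 33.5). In early neurogenic-like cells it had 2 and 75 UMIs, a ratio of 56.6 (15.1 to 476). In committed neurogenic-like cells it had 0 and 130 UMIs, a ratio of 38 when the control count is set to 3. That value is a convention and not a bound. The ratio was 6.13 (4.40 to 8.71) in precursor-like, 3.49 (2.30 to 5.52) in S-like, 1.91 (1.48 to 2.49) in G2/M-like, 3.73 (2.88 to 4.87) in rod-like and 4.94 (2.64 to 10.2) in cone-like cells. In cells of at least 4000 UMIs the S-like ratio was 6.84 (4.46 to 10.9) in Mettl3-CKO cells without and 0.926 (0.532 to 1.63) in those with an Xist UMI, and the second interval held 1. The same ratios without and with Xist were 9.58 (6.72 to 13.9) and 2.76 in precursor-like and 33.7 (22.8 to 51.7) and 12.6 (8.30 to 19.6) in Müller-like cells, with intervals that did not overlap. Over the whole Mettl3-CKO library Cdkn1a was higher in the classes where Cdkn1c or Cdkn1b was lower and also in rod-like cells, where their ratios were 1.03 and 0.997.

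Beside Cdkn1a, few listed genes moved past 1.5-fold in the path from cycling to committed cells. In G2/M-like cells the ratio was 1.56 (1.34 to 1.83) for Cdkn2d, an inhibitor of CDK4 and CDK6, and 1.69 (1.20 to 2.41) for Lin54, a subunit gene of the DREAM complex that represses cell cycle genes in quiescent cells. In S-like cells it was 1.92 (0.773 to 5.70) for the repressor E2f7, 1.69 (0.856 to 3.64) for the CDK-activating phosphatase Cdc25a and 0.649 (0.391 to 1.09) for the repressor E2f6. Each of these 3 intervals held 1. In early neurogenic-like cells it was 0.577 (0.279 to 1.12) for Cdkn2d, 1.62 (0.918 to 2.88) for Cdkn2c, another inhibitor of CDK4 and CDK6, and 0.664 (0.295 to 1.40) for E2f6, and in committed neurogenic-like cells 1.64 (0.844 to 3.29) for Cdc25a. In precursor-like cells it was 1.66 (0.711 to 3.99) for Cdk2, the kinase of cyclins E and A, 0.631 (0.381 to 1.02) for Cdc25a and 1.58 (1.09 to 2.31) for Lin54. Müller-like cells had 7 listed genes past 1.5-fold higher and 2 lower of 21, beside 12% and 7.20% of all genes, among them the activator E2f3 at 2.59 (1.25 to 5.61), Lin54 at 1.81 (0.749 to 4.47) and the repressor E2f5 at 0.570 (0.368 to 0.865). Rod-like cells had 3 of 25 and cone-like cells 7 of 19 past 1.5-fold higher and none lower, beside 5.37% and 12% of all genes higher. The median log2 ratio of the list was 0.23 in Müller-like, 0.41 in cone-like and 0.00 in G2/M-like cells, beside 0.03, 0.03 and 0.06 over all genes.

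Cdkn1c is imprinted and lies in the Kcnq1 region of distal chromosome 7, where the long RNA Kcnq1ot1, made from the paternal copy, is known to silence neighbours including Cdkn1c. Of 9 genes listed for the region and its H19 and Igf2 neighbours, 3 pairs were past 1.5-fold higher and 1 lower of 33 with 20 UMIs. These are 9.09% and 3.03% of the pairs, beside 5.37% to 15.5% and 3.62% to 8.33% of all genes by class. Kcnq1ot1 (ENSMUSG00000101609, chromosome 7, 143203458 to 143296549, minus strand) made all the higher pairs. It was at 243 and 514 CPM in control and Mettl3-CKO G2/M-like cells (ratio 2.11, 1.87 to 2.39), 393 and 605 in early neurogenic-like (1.54, 1.37 to 1.73) and 343 and 535 in Müller-like cells (1.56, 1.40 to 1.75). In the other 5 classes it was under 1.5-fold, from 1.16 (0.994 to 1.36) in S-like to 1.5 (1.38 to 1.63) in precursor-like cells. The interval also left out 1 in committed neurogenic-like (1.39, 1.23 to 1.56), rod-like (1.33, 1.25 to 1.42) and cone-like cells (1.20, 1.04 to 1.38). Over all cells of the libraries the ratio was 1.47 (1.43 to 1.52). In cells of at least 4000 UMIs the Müller-like ratio was 1.14 (0.959 to 1.34) in Mettl3-CKO cells without and 1.96 (1.73 to 2.23) in those with Xist, so only the cells with Xist were past 1.5-fold. In G2/M-like cells the same ratios were 2.15 (1.85 to 2.49) and 2.16 (1.89 to 2.47), in early neurogenic-like cells 1.69 (1.46 to 1.96) and 1.42 (1.23 to 1.63) and in cone-like cells 1.09 (0.881 to 1.35) and 1.23 (1.06 to 1.42). Over the 8 classes the ratios of Cd81 and Nap1l4, its neighbours, ran from 0.725 to 0.961 and from 0.752 to 1.04, and Tssc4 from 0.913 to 1.40. The lower pair was H19 in G2/M-like cells at 0.324 (0.137 to 0.713), from 22 and 10 UMIs. Of all H19 UMIs, 401 of 477 in control and 143 of 197 in Mettl3-CKO lay in astrocyte-like cells, of which H19 was a leading gene, and 1 control G2/M-like cell lay in the astrocyte cluster. Kcnq1ot1 overlaps Kcnq1 on the opposite strand.

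Because the Mettl3-CKO library held cells with and without Xist, the main ratios were taken again in cells of at least 4000 UMIs. Each Mettl3-CKO part was set against all control cells of that depth. With 2 pups in the Mettl3-CKO pool, the parts largely stand for different pups, so sex and pup cannot be told apart. In G2/M-like cells Cdkn1c was at 0.358 (0.254 to 0.494) in Mettl3-CKO cells without and 0.447 (0.347 to 0.571) in those with an Xist UMI, and in committed neurogenic-like cells at 0.609 (0.455 to 0.805) and 0.448 (0.341 to 0.582). Both intervals lay below 1 in both classes. In S-like cells it was at 0.375 (0.214 to 0.634) and 0.624 (0.419 to 0.927), and in early neurogenic-like cells at 0.874 (0.681 to 1.11) and 0.656 (0.515 to 0.827). In precursor-like cells the values were 0.566 (0.375 to 0.829) without and 1.08 (0.831 to 1.40) with Xist. Müller-like cells were at 0.900 (0.606 to 1.30) without and 1.36 (1.01 to 1.82) with Xist, the second interval above 1. In rod-like and cone-like cells the intervals of both parts held 1. Cdkn1b in Müller-like cells was at 0.542 (0.415 to 0.700) and 0.633 (0.508 to 0.782) and Rgcc in G2/M-like cells at 0.491 (0.252 to 0.896) and 0.389 (0.215 to 0.674). Rgcc in S-like cells was at 0.817 (0.389 to 1.68) without and 0.181 (0.0531 to 0.497) with Xist and in Müller-like cells at 0.743 (0.428 to 1.23) and 0.525 (0.298 to 0.877), so the values without Xist were within 1.5-fold. Ccnd1 went to opposite sides of 1 in committed neurogenic-like cells, at 0.634 (0.506 to 0.788) and 1.35 (1.17 to 1.57), and in S-like cells was at 0.673 (0.623 to 0.726) and 0.994 (0.935 to 1.06). In both classes both values lay outside the counting interval of the whole class, 0.937 to 1.23 and 0.820 to 0.918, so that interval does not cover the spread within the Mettl3-CKO library. Cdk4 in cone-like cells was at 0.894 (0.50 to 1.53) without and 2.06 (1.5 to 2.86) with Xist.

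**Figure D3:**
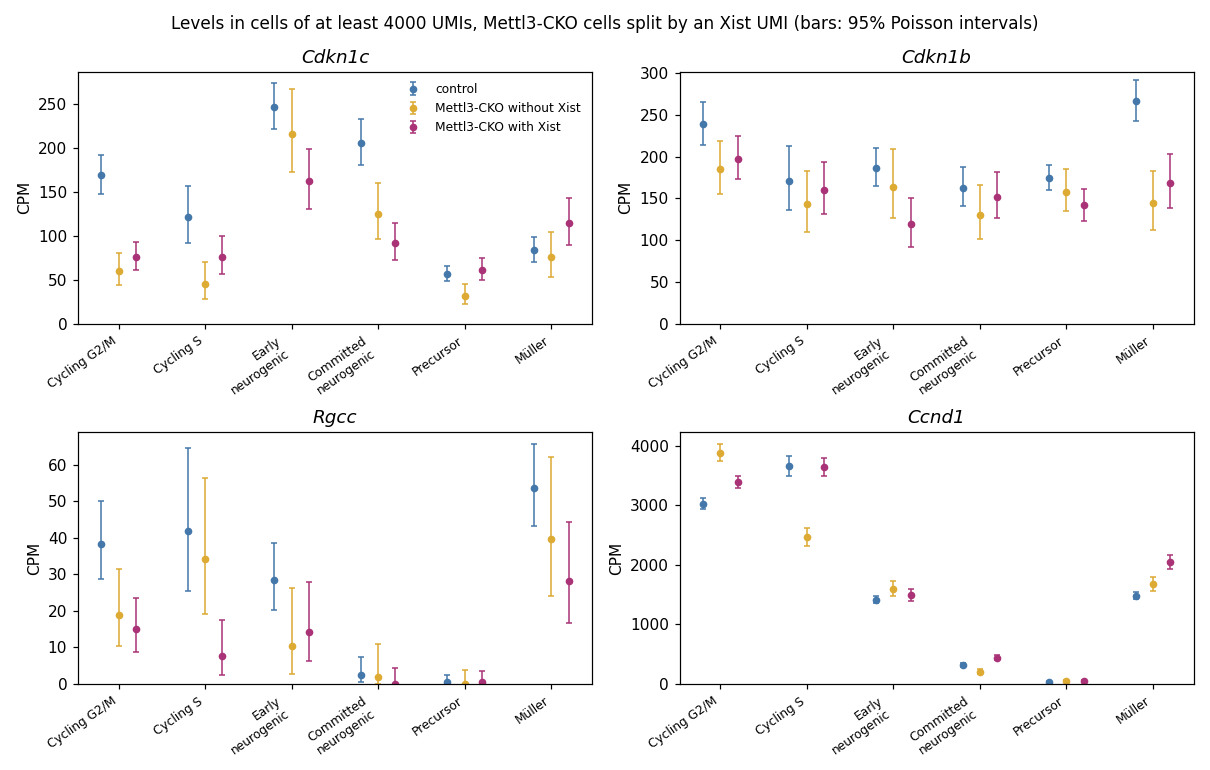
Levels of Cdkn1c, Cdkn1b, Rgcc and Ccnd1 in CPM on linear axes from 0, in 6 cell classes, for control cells (blue) and Mettl3-CKO cells without (yellow) or with (purple) an Xist UMI, all of at least 4000 UMIs, with 95% Poisson intervals. Both Mettl3-CKO parts are below control for Cdkn1c in G2/M-like, S-like and committed neurogenic-like cells and for Cdkn1b in Müller-like cells, while Ccnd1 in S-like cells is lower only in the part without Xist.

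Similar patterns were sought among 10312 genes with at least 200 UMIs, over the 16 class and library values on the log2(CPM + 10) scale. The points share libraries, so the correlations are descriptions. The names depend on the pseudocount, since at 1 in place of 10 the nearest 3 genes of Rgcc were Id3, Smarcd3 and Arhgef3 and those of Ccnd1 were Id2, Id1 and Itm2a. Ccnd1 was nearest to Myb (r = 0.99), Ehd2 (r = 0.99) and Itm2a (r = 0.99), and Cdkn1b to Rab10 (r = 0.92), Ttyh3 (r = 0.91) and Kdelr1 (r = 0.90). Cdkn1c was nearest to Vma21 (r = 0.83), Psmd4 (r = 0.82) and Spint2 (r = 0.78), a looser likeness than that of Ccnd1, and Ccnd3 to Cryzl1 (r = 0.86), Aig1 (r = 0.86) and Sept4 (r = 0.85). Among the members themselves Ccnd1 ran closest to E2f1 (r = 0.98), Cdk6 (r = 0.89) and Rgcc (r = 0.87), whereas Cdkn1c ran with none of them (r from -0.17 with Cdkn1b to 0.18 with Cdk6).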

How the data were processed

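Single cells were freed from the retinas with papain, and 3′ libraries were made with the 10x Genomics V3.1 kit. The deposited values are raw UMI counts per gene and cell, which the authors made with Cell Ranger 3.1.0, and the submitters' processing notes also name Seurat 3.1 and mouse build mm10. The authors' count matrices, as read here, ended before the 13377095 and 17695523 entries that their size lines name, so 3994 of 5995 control and 3109 of 6992 Mettl3-CKO cells were complete and used. The rest were not analysed here. The study's filter (over 200 genes, under 20% mitochondrial UMIs) was not met by 237 and 86 of these cells, although the study gives the barcode numbers as its cell numbers. No cell was left out. Scrublet marked 0.0751% and 0.161% as doublets, too few to count as removal. UMIs of 13 mitochondrial genes (5.53% and 4.19%) stayed out of totals.

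Cells were classed by the number of distinct markers with a UMI, which assigned 76.7% and 77.4%. Minimum numbers were 5 of 14 G2/M, 4 of 14 S, 4 of 8 early neurogenic, 3 of 6 committed neurogenic, 3 of 5 precursor, 6 of 13 Müller, 7 of 12 rod and 5 of 9 cone markers. These were set after marker counts had been seen, the astrocyte class (2 of 4) after the Ccnd2 values and the S minimum after the numbers of cells. Precursor-like cells had 1 marker, Neurod4, among their 10 leading genes. UMIs were summed per class and library and given as CPM with exact Poisson intervals, ratios with exact conditional binomial intervals and shares with Clopper-Pearson intervals, all at 95% and for counting error only. A count of 0 was set to 3 for a ratio. Cells of 1 library are not replicates, so no p-value was computed. Size rules were 1.5-fold between genotypes and 2-fold between classes, with at least 20 UMIs. The scripts were tested on simulated data. The members and lists were chosen with earlier results of these data known. All members are named in classes of at least 50 cells a library, at most 4 listed genes a class past 1.5-fold, and the 3 most similar genes. Genes named beyond this rule were chosen after their values were seen. The alternatives were other scaling, cell weights, filters, gates, Leiden clusters, thinning depths and pseudocounts. Positions are from GENCODE vM21 (GRCm38). Python 3.11.15, scanpy 1.11.5, scipy 1.17.1 and igraph 0.11.9 were used.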

Additional observations from a re-analysis of the deposited data

Results flagged for a closer look

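Xist entered none of the genotype comparisons above other than to divide the Mettl3-CKO cells, and it was far above the control level in the Mettl3-CKO library, at 1544 CPM against 1.53 CPM in control. It was seen in 1751 of 3109 Mettl3-CKO and 30 of 3994 control cells. Y-linked genes were present in both libraries, so female and male cells were both in the Mettl3-CKO pool. In this design genotype and sex cannot be told apart over whole libraries, nor sex and pup within the Mettl3-CKO library.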

How the results depend on the processing

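No paired analysis was possible because each genotype had 1 library, and for the same reason no library could be left out. Of the 14 pairs of a member and a class past 1.5-fold (3 higher, 11 lower), all 14 stayed past it without Scrublet doublets, under the study's cell filter, in cells of at least 4000 UMIs and with median-of-ratios scaling, 12 with the mean of per-cell CPM, 10 in Mettl3-CKO cells without Xist, 12 of 13 with Xist, 10 of 12 under a stricter gate with more markers required, and 4 of 11 in Leiden clusters, which gave no S cluster. With alternatives added after seeing the data, 13 stayed past it with at least 5 S markers and 13 without the astrocyte class. Cdkn1c and Rgcc in G2/M-like cells stayed past it under all 11. The 3 higher pairs became 6 in Leiden clusters, 1 at a minimum of 100 UMIs, and 5 both with the per-cell mean and with no minimum, and the 11 lower became 4 in Leiden clusters and 5 at 100 UMIs. The direction turned, with these log2 ratios, for Ccnd2 in G2/M-like cells without the astrocyte class (1.04), Ccnd3 (0.91) and Rgcc (0.37) in early neurogenic-like cells with Leiden clusters, Cdk4 in cone-like cells without Xist (-0.16) and E2f1 in precursor-like cells under the stricter gate (-0.091). The cause was not tested.

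In Müller-like against cycling cells, the Mettl3-CKO members past 2-fold higher (0) became 2 in Leiden clusters and 1 with Xist, with 5 S markers and under the stricter gate. Those lower (1) became 0 in Leiden clusters and 2 without the astrocyte class and under the stricter gate. In control those higher (0) became 1 in Leiden clusters, with 5 S markers, without the astrocyte class, with the per-cell mean and under the stricter gate, and those lower (2) became 0 in Leiden clusters and 1 without the astrocyte class. Of the other G1 and S entry genes, 30 higher pairs became 12 at 100 UMIs and 51 with no minimum, and 6 lower pairs became 18 without Xist, 1 at 100 UMIs, 3 without the astrocyte class, 13 with the per-cell mean and 19 with no minimum. Shares of cells with a UMI moved in 234 of 320 cases with the thinning depth, while all 30 correlations at other pseudocounts moved by less than 0.05.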
